A study of Rattus norvegicus with 20 samples.

Results

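Pnpla3 and Pnpla2 encode the liver members of the patatin-like phospholipase family that sit on lipid droplets, the organelles in which hepatocytes store triglyceride. Every probe set that the platform annotation pairs with either symbol was taken, which gave 4 of the 27702 probe sets tested: 3 for Pnpla3 (1391544_at, 1380013_at and 1380643_at) and 1 for Pnpla2 (1371697_at). All 4 had a value on all 20 arrays. The genes were chosen on their measured differences between the soybean diets and casein, known from earlier work on these arrays, so those differences are described without a test. The differences among the 3 soybean diets were tested across the whole table.

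The arrays read the 3′ ends of messenger RNAs in liver of male Sprague-Dawley rats that were 4 weeks old on arrival. After 5 days of adaptation the rats ate 1 of 4 diets for 21 days, and 5 rats per diet that ate an average amount were measured, out of 7, 7, 7 and 8 fed. The control diet held 200 g/kg casein as protein source. In the other diets soybean replaced part of the casein: the conventional cultivar Fukuyutaka at a casein to soybean ratio of 1:1, and the high-isoflavone cultivar Yukipirika at 3:1 and at 1:1. All groups therefore ate some casein. Diets are called casein, conventional 1:1, high-isoflavone 3:1 and high-isoflavone 1:1 below. Neither fasting before sampling nor its hour is given in the sources used here.

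Pnpla2, also called adipose triglyceride lipase or ATGL, makes the initial cut of stored triglyceride and releases a fatty acid and a diglyceride. It needs the activator Abhd5 (CGI-58), and the small proteins G0s2 and Hilpda inhibit it. Pnpla3, also called adiponutrin, is a close relative with hydrolase activity on triglyceride and retinyl esters. Pnpla3 competes for Abhd5 and is best known for its part in fatty liver. In rodent liver the 2 genes are known for opposite nutritional control: Pnpla3 messenger RNA falls on fasting and rises on refeeding through the lipogenic factors SREBP-1c and ChREBP, while Pnpla2 is raised on fasting, in part through FoxO1. These statements are background and were not measured here.

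The stretches just upstream of the annotated gene starts are shown because both genes are described below beside the targets of those factors. They come from RefSeq on rat build GRCr8, and both genes matched the table of promoters. Pnpla3 lies on the plus strand of chromosome 7 (7:117173485-117194065) and Pnpla2 on the plus strand of chromosome 1 (1:205982279-205987361). Capitals mark exact matches, on either strand, to the CRE (TGACGTCA), the E-box (CACGTG), the sterol response element (TCACNCCAC), the GC box (GGGCGG) or the CCAAT box (CCAAT).
Pnpla3, chr7:117173278-117173484, plus strand: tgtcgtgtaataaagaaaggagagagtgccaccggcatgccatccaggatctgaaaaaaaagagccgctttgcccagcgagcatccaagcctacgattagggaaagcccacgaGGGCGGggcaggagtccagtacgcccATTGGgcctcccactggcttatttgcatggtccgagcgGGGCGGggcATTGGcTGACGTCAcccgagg
Pnpla2, chr1:205982029-205982278, plus strand: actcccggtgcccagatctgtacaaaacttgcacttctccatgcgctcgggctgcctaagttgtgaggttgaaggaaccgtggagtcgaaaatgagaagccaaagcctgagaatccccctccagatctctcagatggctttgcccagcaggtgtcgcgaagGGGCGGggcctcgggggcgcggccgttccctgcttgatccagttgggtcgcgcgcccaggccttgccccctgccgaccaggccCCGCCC
The Pnpla3 window of 207 bases had a GC content of 58.9% and held 1 CRE, 2 GC boxes and 2 CCAAT boxes, the last read on the other strand as ATTGG. The Pnpla2 window of 250 bases had a GC content of 63.6% and held 2 GC boxes. Neither window held the E-box or sterol response element letters, which says only that these letters are not in these windows. Of 33469 RefSeq promoters cut to the first 207 of 250 bases, 1.03% held the CRE, 25.2% a GC box and 29.6% a CCAAT box. That cut leaves out the last bases of each 250-base window, whereas the Pnpla3 window runs to its annotated gene start. Over all 250 bases, 1.59% held the CRE, 30.5% a GC box and 34.0% a CCAAT box. No match overlapped another. The matches describe the sequence and are not measured binding sites.

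Markers of hepatocytes, the main cell of the labelled tissue, were bright as a sum on every array. The brightest markers carry such a sum, and not each marker was bright. Tat read as low as 2.48 on conventional 1:1, where the array medians were 2.51 to 2.56. The summed signal of 8 measured hepatocyte markers, out of 9 listed, lay between 12.26 and 12.33 on the log2 scale on casein, 12.10 and 12.24 on conventional 1:1, 12.19 and 12.37 on high-isoflavone 3:1, and 12.24 and 12.38 on high-isoflavone 1:1. The sums on conventional 1:1 thus lay just below those on casein, and the part of that gap in the gene values was not tested. The 4 measured adipocyte markers of 8, with Adipoq, Lep, Fabp4 and Retn not measured, summed to 6.18 to 6.80 over all arrays. The 7 measured markers of 8 for hepatic stellate cells, which also hold retinyl ester droplets, summed to 6.85 to 7.16 on casein and to 6.85 to 7.27 on the soybean diets. The 4 measured bile duct markers of 5 summed to 4.03 to 4.49, and for each of these 3 cell types the sums of all diets overlapped. The 6 measured Kupffer cell and macrophage markers of 8 summed to 6.87 to 7.55 on casein, 6.75 to 7.75 on conventional 1:1, 6.99 to 7.23 on high-isoflavone 3:1 and 6.49 to 6.98 on high-isoflavone 1:1. On high-isoflavone 1:1, the diet with the lowest Pnpla3, these sums lay wholly below those on 3:1. All 6 markers were below 0 there against casein, conventional 1:1 and 3:1, with medians of -0.36, -0.28 and -0.37, though none was called, and the part of these cells in the gene values was not tested. Of all genes tested, 0.787% fell against casein on conventional 1:1 and 1.2% on high-isoflavone 1:1. The markers called against casein were 1 of 8 for hepatocytes (Tat, lower on both 1:1 diets), 1 of 4 for bile duct (Epcam, lower on both) and 1 of 4 for adipocytes (Cfd, lower on high-isoflavone 1:1), with limma adjusted p between 0.00251 and 0.0487. The other members of those lists did not all go with them: the 3 other adipocyte markers were above 0 on high-isoflavone 1:1, and the bile duct marker Krt19 was 1.01 and 0.88 above casein on conventional 1:1 and high-isoflavone 1:1, without a call (0.0868 and 0.127). Of 28 other settings, the Tat call was lost in 18 on conventional 1:1 (at up to 0.124) and 6 on high-isoflavone 1:1 (0.0969), the Cfd call in 7 (0.0924), and the Epcam call in 7 on conventional 1:1 (0.0723) and 0 on high-isoflavone 1:1. Casein replicate 5 and high-isoflavone 3:1 replicate 1 had a higher lowest signal than the other 18 arrays, 0.134 and 0.142 against at most -0.265 on the deposited log10 scale. In bulk liver, fewer cells of a type and less RNA per cell cannot be told apart.

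Pnpla3 signal was highest on casein and lower on every soybean diet. On the brightest probe set, 1391544_at, the 5 casein rats read 7.98, 7.38, 8.69, 8.05 and 8.74 on the log2 scale, in order of replicate number, with a mean of 8.17 ± 0.563 (SD, n = 5). Within their own arrays these values lay at the 98.8th to 99.7th percentile of all tested probe sets. Pnpla3 was thus among the brightest probe sets in all 5 casein rats, with a narrow range next to that of the soybean groups. Probes differ in brightness, so a percentile places a value on its array and is not an amount of RNA.

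On conventional 1:1 the same Pnpla3 probe set read 5.19, 6.07, 0.84, 6.31 and 4.01, with a mean of 4.48 ± 2.23 (SD, n = 5). All 5 rats lay below the lowest casein rat, and replicate 3 lay far below the rest of its group. The difference from casein was -3.69 on the log2 scale (SE 0.944), or 12.9-fold lower. Replicate 3 stood at the 3.36th percentile of its array and the other rats between the 85.3rd and 97.2nd. Without replicate 3 the difference was -2.77.

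On high-isoflavone 1:1 the rats read 2.33, 1.93, 5.44, 1.61 and 4.37, with a mean of 3.13 ± 1.68 (SD, n = 5) for 1391544_at. None reached the lowest casein rat. Replicates 3 and 5 were high within the group, at the 95.1st and 89.6th percentile, and the other 3 rats lay between the 18.3rd and 41.2nd percentile. The difference from casein was -5.04 (SE 0.944), or 32.8-fold lower.

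On high-isoflavone 3:1, the diet with the smaller share of soybean, the rats read 6.44, 7.06, 7.74, 2.86 and 6.77, with a mean of 6.17 ± 1.92 (SD, n = 5). Replicate 3, at 7.74, was above casein replicate 2, so the groups overlapped. Replicate 4 was at the 63.3rd percentile of its array and the other 4 rats between the 97.6th and 99.1st. The difference from casein was -2.00 (SE 0.944), or 3.99-fold lower, and it rested in part on replicate 4: without that rat it was -1.17.

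The other 2 Pnpla3 probe sets gave the same order of diets at lower signal. On 1380013_at the casein rats read 6.50, 5.75, 7.15, 6.85 and 7.24, with a mean of 6.70 ± 0.603 (SD, n = 5). Conventional 1:1 read 3.16, 4.01, 0.53, 4.48 and 2.57, with a mean of 2.95 ± 1.54. High-isoflavone 3:1 read 5.00, 5.35, 6.16, 1.81 and 5.09, with a mean of 4.68 ± 1.67. The same rats, conventional replicate 3 and high-isoflavone 3:1 replicate 4, were again the lowest of their groups. High-isoflavone 1:1 read 1.26, 1.21, 3.45, 0.94 and 2.29, with a mean of 1.83 ± 1.04. The differences of 1380013_at from casein were -3.75, -2.02 and -4.87 for conventional 1:1, high-isoflavone 3:1 and high-isoflavone 1:1 (SE 0.709 each). Both 1:1 diets lay wholly below casein, whereas high-isoflavone 3:1 replicate 3 (6.16) passed casein replicate 2 (5.75). Without replicate 4 the high-isoflavone 3:1 difference was -1.30.

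On the dimmest Pnpla3 probe set, 1380643_at, the casein rats read 4.30, 4.46, 5.10, 4.82 and 5.43, with a mean of 4.82 ± 0.463 (SD, n = 5). Conventional 1:1 read 1.96, 3.54, 0.57, 2.57 and 1.50, high-isoflavone 3:1 read 2.90, 3.25, 3.83, 0.82 and 3.10, and high-isoflavone 1:1 read 0.79, 1.07, 2.12, 0.87 and 2.04. Here all 3 soybean groups lay below all casein rats, the nearest values being 3.83 and 4.30. The differences were -2.79, -2.04 and -3.45 (SE 0.496 each). Many of the low values lay in the dimmest part of the array (down to the 1.77th percentile). With every value under an array's 25th percentile set to that percentile, the high-isoflavone 1:1 difference was -2.87 for 1380643_at, -4.43 for 1380013_at and -4.99 for 1391544_at.

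The groups of all 3 Pnpla3 probe sets did not overlap with casein on conventional 1:1 and on high-isoflavone 1:1, and those of 1 of 3 did not on high-isoflavone 3:1. Over all tested probe sets, 1.64% lay wholly below casein on conventional 1:1, 2.08% on high-isoflavone 1:1 and 0.718% on high-isoflavone 3:1. These counts involve the contrasts for which the gene was chosen and only describe it. The 3 comparisons share their 5 casein rats, and the 3 probe sets read the same RNA, so neither the comparisons nor the probe sets are independent.

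**Figure D1:**
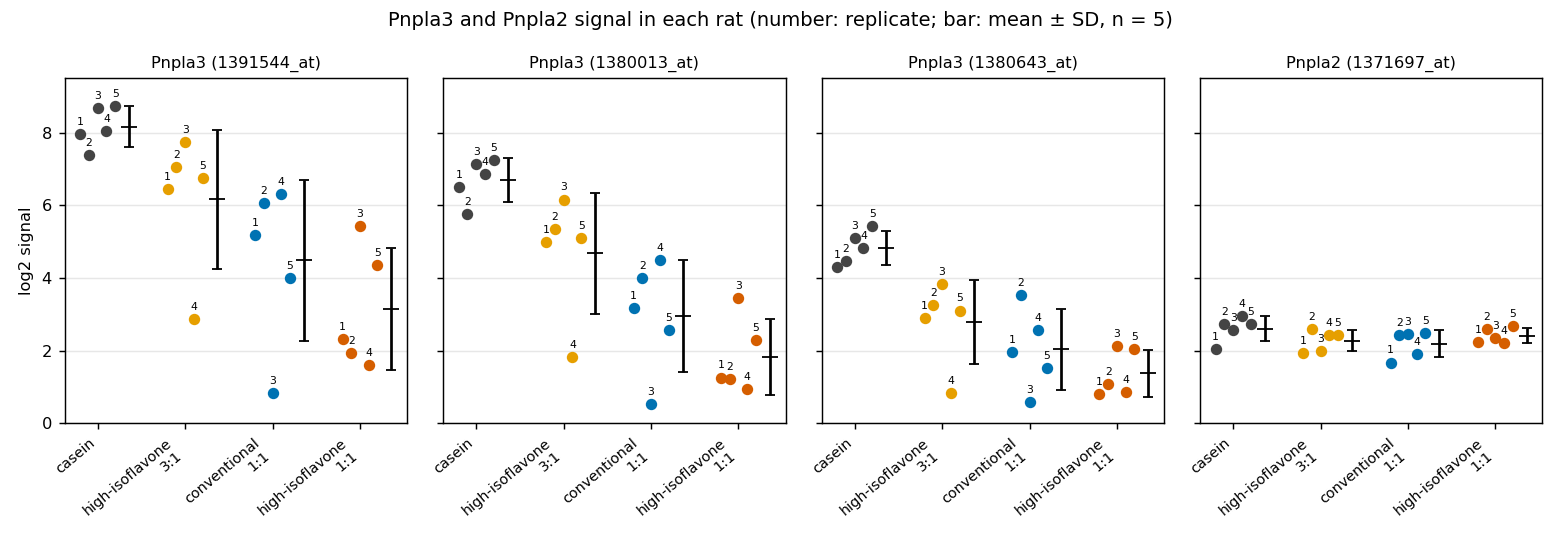
Log2 signal of the 3 Pnpla3 probe sets and the Pnpla2 probe set in each of 20 rats, by diet; points are rats with their replicate number and bars are the mean ± SD (n = 5). On 1391544_at the casein rats sit between 7.38 and 8.74, all 10 rats of the 1:1 diets sit below them, and single rats on conventional 1:1 (0.84) and high-isoflavone 3:1 (2.86) sit far below their groups, while the Pnpla2 values of all diets overlap.

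The mean Pnpla3 level ran in the order casein, high-isoflavone 3:1, conventional 1:1, high-isoflavone 1:1 on all 3 probe sets. None of the steps among the soybean diets passed the test (limma, Benjamini-Hochberg over all probe sets), in comparisons where few probe sets did. On 1391544_at high-isoflavone 1:1 was lower than conventional 1:1 by a log2 difference of -1.35, with a 95% interval of -3.31 to 0.61 (limma adjusted p = 0.826), in a comparison that called 0.0758% of all probe sets. It was -2.26 without conventional replicate 3 and -0.89 without conventional replicate 4. High-isoflavone 1:1 against 3:1 gave -3.04, with an interval of -5.00 to -1.08 that does not include 0, yet the limma adjusted p over the whole table was 0.526. That comparison called 0% of the probe sets, and 2000 had an unadjusted p under 0.05. Without 3:1 replicate 4 the difference between the shares was -3.87, and still not called (limma adjusted p = 0.247).

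High-isoflavone 3:1 against conventional 1:1 gave 1.69 for 1391544_at, with an interval of -0.27 to 3.65 (limma adjusted p = 0.524), in a comparison that called 0.00361% of the probe sets. Without conventional replicate 3 the difference was 0.78 and without 3:1 replicate 4 it was 2.52, so single rats set much of its size. The other 2 probe sets had limma adjusted p values between 0.385 and 0.847 over the same 3 comparisons. For 1380013_at the differences were -1.12, -2.86 and 1.73 in the order given, and for 1380643_at -0.65, -1.40 and 0.75. For high-isoflavone 1:1 against 3:1 their intervals did not include 0 either, at -4.33 to -1.38 and -2.43 to -0.37. For high-isoflavone 3:1 against conventional 1:1 that of 1380013_at (0.26 to 3.20) did not include 0, and that of 1380643_at (-0.28 to 1.78) did. Both included 0 for high-isoflavone 1:1 against conventional 1:1. The intervals hold differences of several-fold in Pnpla3 between the soybean diets, so the diets are not shown to act alike. All these intervals are for single probe sets and are not adjusted.

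Pnpla3 varied between rats of a soybean diet more than nearly any other probe set. On conventional 1:1 the SD of 1391544_at was 2.23, and 1 of the 27702 probe sets had a larger one. On high-isoflavone 3:1, 5 had a larger SD, and on high-isoflavone 1:1, 8. On casein 1085 probe sets had a larger SD than its 0.563. The SD of Pnpla3 was thus larger on the soybean diets, a difference that was not tested. On high-isoflavone 3:1 it rested largely on replicate 4, at 2.86 against 6.44 to 7.74 for the other rats. On conventional 1:1 replicate 3 read 0.84, against 4.01 to 6.31 for the others. The high-isoflavone 1:1 rats were spread from 1.61 to 5.44, and the casein rats from 7.38 to 8.74. For 1380013_at the same counts were 17, 12 and 80 on the soybean diets and 828 on casein, and for 1380643_at they were 68, 45 and 751, and 2175. With the 4 diets pooled, the within-diet SD of 1391544_at was 1.72 and that of Pnpla2 0.310, against a median of 0.238 over all probe sets, and 7742 probe sets varied more than Pnpla2.

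**Figure D2:**
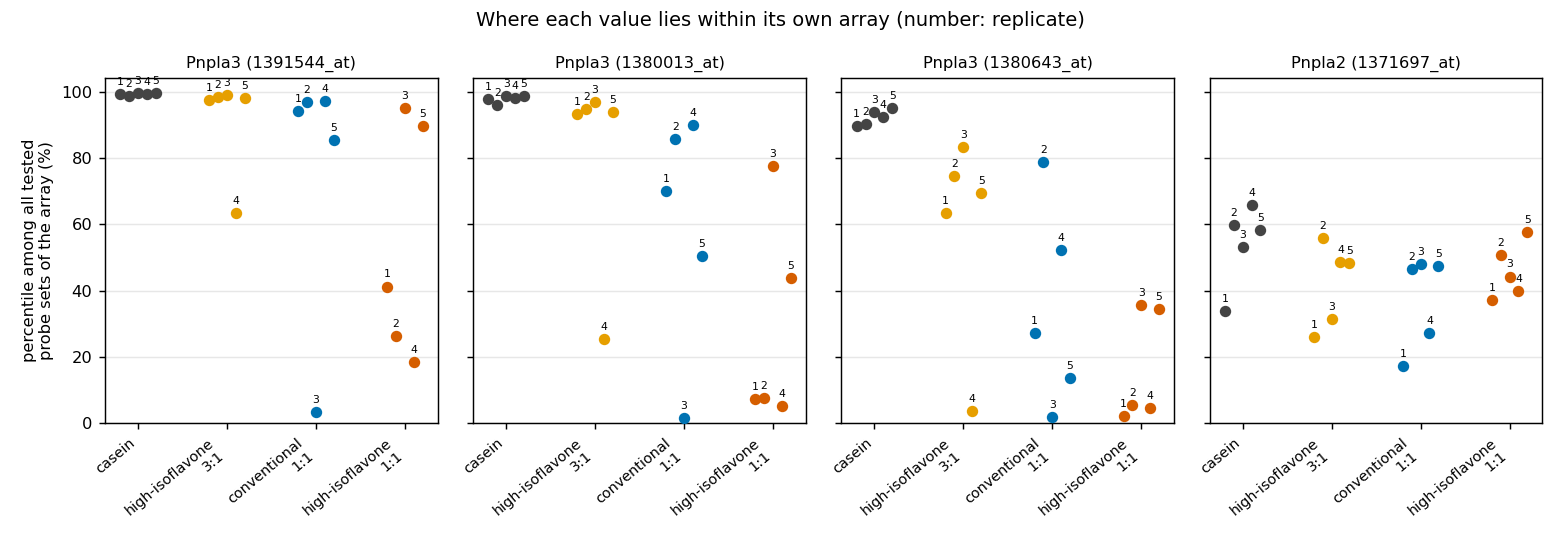
Percentile of each Pnpla3 and Pnpla2 value among the 27702 probe sets of its own array, by diet, with replicate numbers. On 1391544_at the casein rats lie at the 98.8th percentile or above, the 1:1 diets span the array from the 3.36th to the 97.2nd percentile, and Pnpla2 lies between the 17.1st and 65.9th percentile throughout.

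The 3 Pnpla3 probe sets ranked the rats alike. After each diet's mean was subtracted, 1391544_at and 1380013_at had a Pearson r of 0.98 over the 20 rats (Spearman rho 0.96), and 1391544_at and 1380643_at an r of 0.93 (rho 0.91). Without the 2 rats farthest from the median, conventional replicate 3 and 3:1 replicate 4, the values were 0.96 and 0.84. The probe sets share each array and its RNA. Measures of RNA quality in the 2 low rats lay within the range of all arrays: the 3′ to 5′ log2 difference of beta-actin was 1.83 and 1.53, in a range of 1.07 to 2.13 over all arrays, and that of GAPDH was 0.917 and 0.925 in a range of 0.70 to 1.06. The summed Kupffer cell and macrophage markers were highest of all in conventional replicate 3, at 7.75 against 6.49 to 7.55 elsewhere. The part of these cells in its Pnpla3 value was not tested.

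Pnpla2 levels overlapped between all diets. The casein rats read 2.04, 2.72, 2.55, 2.95 and 2.72, with a mean of 2.60 ± 0.341 (SD, n = 5). Conventional 1:1 read 1.67, 2.42, 2.47, 1.92 and 2.49, with a mean of 2.19 ± 0.376. High-isoflavone 3:1 read 1.94, 2.58, 1.99, 2.42 and 2.43, with a mean of 2.27 ± 0.289. Every soybean group overlapped with casein. High-isoflavone 1:1 read 2.22, 2.58, 2.35, 2.22 and 2.67, with a mean of 2.41 ± 0.207. The differences from casein were -0.41, -0.32 and -0.19 for conventional 1:1, high-isoflavone 3:1 and high-isoflavone 1:1 (SE 0.183 each), at most 1.32-fold with all rats in the fit. When 1 array was left out these ranged from -0.54 to -0.27, from -0.46 to -0.24 and from -0.33 to -0.10. Casein replicate 1 gave the low end of each (-0.54, -0.46 and -0.33 without it), and casein replicate 4 the high end of the last (-0.10). Replicate 1 lay below its diet's mean of Pnpla2 in all 4 diets, with deviations of -0.55 on casein, -0.52 on conventional 1:1, -0.34 on high-isoflavone 3:1 and -0.18 on high-isoflavone 1:1. No neighbours in the order casein, high-isoflavone 1:1, high-isoflavone 3:1, conventional 1:1 were farther apart than the SD of their groups.

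Among the soybean diets Pnpla2 differed by 0.22 between high-isoflavone 1:1 and conventional 1:1 (95% interval -0.17 to 0.60), by 0.13 between the shares of high-isoflavone soybean (-0.25 to 0.52) and by 0.08 between high-isoflavone 3:1 and conventional 1:1 (-0.30 to 0.46). The limma adjusted p values were 0.872, 0.905 and 0.902. The intervals leave room for changes of up to about 0.6 log2 units, far smaller than the intervals of Pnpla3. Within diets Pnpla2 and 1391544_at had an r of -0.22 (rho -0.13) over the 20 rats, and -0.01 without the 2 low Pnpla3 rats. Pnpla2 is read by 1 probe set of middling signal here, so its values have no check by other probes.

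Abhd5, the activator that both lipases bind, fell on conventional 1:1. The casein rats read 4.36, 4.55, 4.40, 4.50 and 4.81, and the conventional rats 3.47, 3.86, 3.54, 4.18 and 3.54. These did not overlap, on a diet where 1.64% of all tested probe sets lay wholly below casein. The difference was -0.81 (SE 0.161, limma adjusted p = 0.0160), and 1.64% of all probe sets were called in this comparison. The call was lost without casein replicate 5 (adjusted p = 0.0557) and without both arrays with the higher lowest signal (0.0647). A second, dimmer Abhd5 probe set gave -1.07 (0.0251). On high-isoflavone 3:1 and 1:1 Abhd5 differed by -0.30 and -0.37 (limma adjusted p = 0.684 and 0.252), and no difference in Abhd5 between soybean diets was called.

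The inhibitors of Pnpla2 were not called on any diet. G0s2, which binds the patatin domain of Pnpla2, differed from casein by -0.06, 0.29 and -0.06 in the order conventional 1:1, high-isoflavone 3:1, high-isoflavone 1:1 (SE 0.265, limma adjusted p = 0.935, 0.859 and 0.940). Hilpda, a hypoxia-inducible droplet protein that inhibits it too, differed by -0.35, 0.07 and 0.03 (SE 0.163, adjusted p = 0.285, 0.957 and 0.961). G0s2 ranged from 6.16 to 7.55 and Hilpda from 1.51 to 2.75 over the 20 rats, with overlap between all diets.

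The perilipins coat droplets and gate access of lipases to them. Plin2, the main coat protein of liver droplets, differed by -0.62, -0.08 and -0.38 (SE 0.167, limma adjusted p = 0.0606, 0.953 and 0.255). The casein rats read 7.79, 7.41, 7.86, 7.35 and 8.22 and the conventional rats 7.26, 7.13, 6.79, 7.00 and 7.35, which met at 7.35. A dimmer Plin2 probe set passed the test on both 1:1 diets, at -0.98 (0.0221) and -0.80 (0.0463). Plin3, a coat protein of small droplets, fell on high-isoflavone 1:1, by 1.09 (SE 0.256, adjusted p = 0.0250), and differed by -0.84 and -0.61 on conventional 1:1 and high-isoflavone 3:1 (0.0960 and 0.552). Its call was lost in 6 of 28 other settings, at up to 0.0872. Plin5, which recruits Pnpla2 and Abhd5 in oxidative tissue, differed by -0.23, -0.17 and -0.27, and Plin1, the coat protein of fat cells, by -0.02, 0.38 and 0.50, with no call.

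Of 26 droplet genes in all, 4 fell and 1 rose on conventional 1:1, none was called on high-isoflavone 3:1 (where 0.0397% of all probe sets were), and 3 fell and 1 rose on high-isoflavone 1:1 (where 2.21% were). Among all genes tested, 0.787% fell and 1.08% rose on conventional 1:1, 0.0297% fell on high-isoflavone 3:1, and 1.2% fell and 1.33% rose on high-isoflavone 1:1. The list's median difference was -0.19, 0.02 and -0.07 on the log2 scale, against 0.04, 0.01 and 0.03 for all genes. Without casein replicate 5 the counts on conventional 1:1 were 2 down and 0 up. The falls on high-isoflavone 1:1 numbered 1 without casein replicate 3, casein replicate 4 or high-isoflavone 1:1 replicate 4, and the rises 2 without conventional 1:1 replicate 1 or high-isoflavone 1:1 replicate 5. Without both arrays with the higher lowest signal, the falls numbered 2 and 1. Several of the members that moved are esterases outside the Pnpla family.

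Ces1d, a carboxylesterase that hydrolyses triglyceride in the endoplasmic reticulum, rose on both 1:1 diets. The casein rats read 6.42, 6.29, 6.31, 6.77 and 5.94 and the high-isoflavone 1:1 rats 7.35, 7.58, 7.66, 7.42 and 7.18. The difference was 1.07 on conventional 1:1 and 1.09 on high-isoflavone 1:1 (SE 0.212, limma adjusted p = 0.0153 and 0.00842), or 2.09-fold and 2.13-fold, and the call on conventional 1:1 was lost without casein replicate 5 (0.0551) and without both arrays with the higher lowest signal (0.0633). Related carboxylesterases share sequence, so the probes may read more than 1 of them. Ddhd1, a phospholipase, fell by 1.72 and by 1.89 on those diets (SE 0.232, adjusted p = 0.00126 and 0.000181), and was called in all 28 other settings. Its relative Ddhd2, which also hydrolyses triglyceride, fell on conventional 1:1 by 0.48 (SE 0.113, adjusted p = 0.0354), a call lost in 9 of 28 settings at up to 0.0825. Lipc, the secreted hepatic lipase, fell by 0.58 and by 0.47 (SE 0.109, adjusted p = 0.0102 and 0.0242), the latter lost in 6 of 28 settings at up to 0.0614.

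No other patatin-like family member examined was called. Of 4 measured out of 5 listed (Pnpla1, Pnpla6, Pnpla7 and Pnpla8), none was called in any comparison with casein, and the median differences were 0.02, 0.03 and 0.06. Only 1.64%, 0.0397% and 2.21% of all probe sets were called there, so the lack of a call among 4 genes says little about the family. Pnpla6 and Pnpla7, lysophospholipases of the endoplasmic reticulum, differed by at most 0.13 and 0.33 from casein, and Pnpla8, a mitochondrial and peroxisomal phospholipase, by at most 0.07 in size. Pnpla7 on high-isoflavone 1:1 was nearest to a call (limma adjusted p = 0.0839). Its rats there lay just above all casein rats, at 3.98 and more against at most 3.97. The share of all probe sets that lay wholly above casein is not given here, so how common this is cannot be judged. Pnpla4, which is not in the list and was looked at after the values were seen, differed by -0.19, -0.03 and -0.33 (SE 0.143, adjusted p = 0.518, 0.982 and 0.240). On high-isoflavone 1:1 Pnpla4 read 1.81 to 2.25, wholly below the 2.29 to 2.58 of casein, where 2.08% of all tested probe sets lay wholly below casein.

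The regulators and targets of SREBP-1c and ChREBP, factors that Pnpla3 is known to respond to, were mostly lower on the soybean diets. Of 26 measured out of 27 listed, 10 fell and 1 rose on conventional 1:1, none was called on high-isoflavone 3:1, and 12 fell and none rose on high-isoflavone 1:1. Over all genes, 0.787% fell and 1.08% rose on conventional 1:1 and 1.2% fell on high-isoflavone 1:1. In each of the 3 comparisons 23 of 26 lay below 0, with medians of -0.81, -0.45 and -0.85, against 0.04, 0.01 and 0.03 for all genes. The 3 comparisons share the casein rats. The counts of falls were 6 on conventional 1:1 without casein replicate 2, 3, 4 or 5, and 7 on high-isoflavone 1:1 without its replicate 2. Both were also at those values without the 2 arrays with the higher lowest signal. That these genes were low on soybean was known when the list was made, so the counts are not independent support.

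Srebf1, which encodes SREBP-1, differed by -0.87, -0.39 and -1.06 on conventional 1:1, high-isoflavone 3:1 and high-isoflavone 1:1 and was not called (limma adjusted p = 0.129, 0.801 and 0.0610). Mlxipl, which encodes ChREBP, differed by -0.22, -0.22 and -0.35, with no call. Insig1, a sterol-responsive brake on SREBP processing, differed by -1.26, -0.27 and -1.63 (0.197, 0.945 and 0.0898). Scap, the escort protein that carries SREBP to the Golgi, fell by 0.67 on conventional 1:1 and by 0.59 on high-isoflavone 1:1 (SE 0.0964, adjusted p = 0.00166 and 0.00217), in all 28 other settings too. A very dim second Scap probe set lay in the opposite direction, at 1.03 and 1.07, without a call.

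Of the target enzymes, Fasn, the fatty acid synthase, fell by 2.21 on high-isoflavone 1:1 (SE 0.530, limma adjusted p = 0.0287) and differed by -1.72 and -1.42 on conventional 1:1 and high-isoflavone 3:1 (0.0993 and 0.471). The Fasn call was lost in 7 of 28 settings, at up to 0.0955. Elovl6, an elongase of saturated fatty acids, fell by 2.06 and by 2.59 on the 1:1 diets (SE 0.475, adjusted p = 0.0321 and 0.00548). On conventional 1:1 that call was lost in 8 of 28 settings, at up to 0.0853. Scd, the stearoyl-CoA desaturase, differed by -0.71, -0.56 and -0.60 with no call. Also lower on conventional 1:1 and high-isoflavone 1:1 were Acacb, an acetyl-CoA carboxylase (-0.80 and -0.89), Acss2, an acetyl-CoA synthetase (-0.90 and -1.17), Pgd, a source of NADPH (-1.26 and -1.33), and Fads2, a fatty acid desaturase (-1.39 and -1.09), with limma adjusted p values between 0.000618 and 0.0139. Among these targets no fall was as large as the differences of Pnpla3 on 1391544_at, -3.69 and -5.04.

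**Figure D3:**
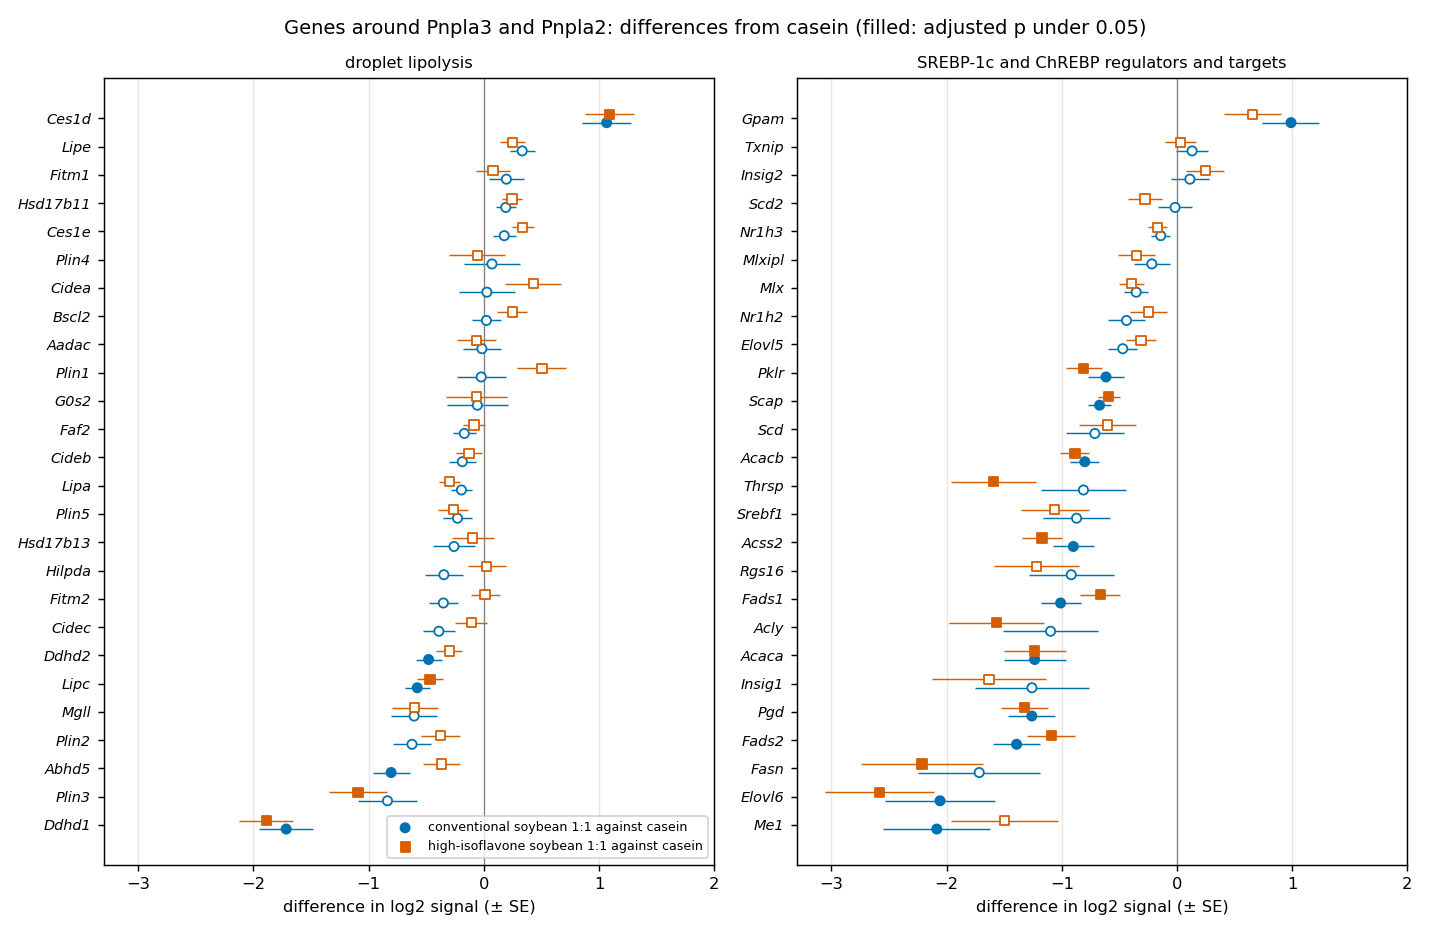
Difference in log2 signal from casein (± SE) for the 26 droplet genes and the 26 regulators and targets of SREBP-1c and ChREBP, on conventional 1:1 and high-isoflavone 1:1. Filled symbols passed an adjusted p of 0.05. Most droplet genes lie near 0 with Ddhd1 lowest and Ces1d highest, whereas 23 of the 26 SREBP-1c and ChREBP genes lie below 0 in either comparison.

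The triglyceride synthesis and fasting lists each held 1 gene called against casein, both on conventional 1:1. There 1.08% of all genes rose and 0.787% fell. The shares were 0.0297% and 0.0297% on high-isoflavone 3:1, and 1.33% and 1.2% on high-isoflavone 1:1. Of 12 measured triglyceride synthesis genes, Gpam, the initial acyltransferase, rose on conventional 1:1 by 0.99 (SE 0.248, limma adjusted p = 0.0455). It was the rise counted in the SREBP-1c and ChREBP list too, was lost in 16 of 28 settings at up to 0.108, and a dimmer Gpam probe set gave -0.46 (0.372). Of 13 measured FoxO1, PPAR-alpha and fasting genes, Cyp4a1, a fatty acid omega-hydroxylase, fell on conventional 1:1 by 0.77 (SE 0.185, adjusted p = 0.0388), a call lost in 10 of 28 settings. Without casein replicate 1 or 4, or high-isoflavone 1:1 replicate 1 or 5, 2 genes of that list fell on conventional 1:1, and none without casein replicate 2, 3 or 5 or conventional replicate 1, 4 or 5. The FoxO1 and fasting genes Igfbp1, Pck1, Pdk4 and Angptl4 were not called on any diet, at differences between -0.81 and 0.47. None of 7 measured genes of retinyl ester handling was called, with medians of 0.06, 0.21 and 0.31, and 1 rose on high-isoflavone 1:1 without conventional replicate 1 or 3 or high-isoflavone 1:1 replicate 5. No gene of any of these lists was called in a comparison between soybean diets, where at most 0.0758% of all probe sets were.

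Within diets, rats with low Pnpla3 tended to have low Acly and Fasn. The likeness of each gene to 1391544_at was measured as Pearson r over the 20 rats after each diet's mean was subtracted, across 8412 genes with a mean above the median. The points share their arrays, so r is a description. Acly, the ATP-citrate lyase, was the most alike (r 0.91, rho 0.80), followed by Secisbp2l (r 0.89), Tjp3 (r 0.89), Fasn (r 0.88), Pgd (r 0.85) and Siva1 (r 0.84). Scd ranked 7 with an r of 0.81, Elovl6 ranked 17 with 0.76 and Insig1 ranked 24 with 0.74. Without conventional replicate 3 and 3:1 replicate 4, the r values were lower: 0.75 for Acly, 0.78 for Secisbp2l, 0.70 for Fasn, 0.59 for Pgd and 0.69 for Scd.

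The Acly values show which rats make this pattern. On conventional 1:1 the rats read 7.98, 7.53, 5.72, 7.54 and 7.44, and on high-isoflavone 3:1 they read 7.80, 7.75, 7.93, 5.86 and 7.65. Replicate 3 of the one and replicate 4 of the other stood apart, as for Pnpla3. On high-isoflavone 1:1 Acly read 6.68, 6.12, 7.99, 6.33 and 6.74, and replicate 3, the rat with the highest Pnpla3, was again the highest. Fasn in the same rats read 5.09, 4.69, 7.12, 5.26 and 5.58. Acly on high-isoflavone 1:1 differed from casein by -1.57 (limma adjusted p = 0.0489), a call lost in 20 of 28 settings.

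The regulators were less alike to Pnpla3 within diets than several of their targets. Srebf1 had an r of 0.68 (rank 60) and Mlxipl of 0.68 (rank 61), and without the 2 low rats both were 0.40. Plin2 had an r of 0.57 (rho 0.33), G0s2 of 0.51 and Angptl4 of 0.45, and Hilpda ran the other way at -0.53. Without the 2 low rats these were 0.19, 0.27, 0.39 and -0.32. Much of the size for Plin2 and G0s2, and part of that for Hilpda, thus rested on those rats, while the r of Angptl4 changed little. Abhd5 had an r of 0.10 over all rats and 0.65 without the 2 low rats. Igfbp1, Pck1 and Pdk4 lay between -0.39 and 0.13, and between 0.12 and 0.26 without the 2 low rats. For Pnpla2 the genes most alike were Pigu (r 0.85), Imp3, Dlst and Paf1 (r 0.83 each), none of them in the lists above, and without casein replicate 1 and conventional replicate 1 these lay between 0.69 and 0.79. Fasn, Srebf1 and Elovl6 had an r of -0.30, -0.35 and -0.39 with Pnpla2, and Abhd5 of 0.03. Likeness says nothing of shared function or control.

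**Figure D4:**
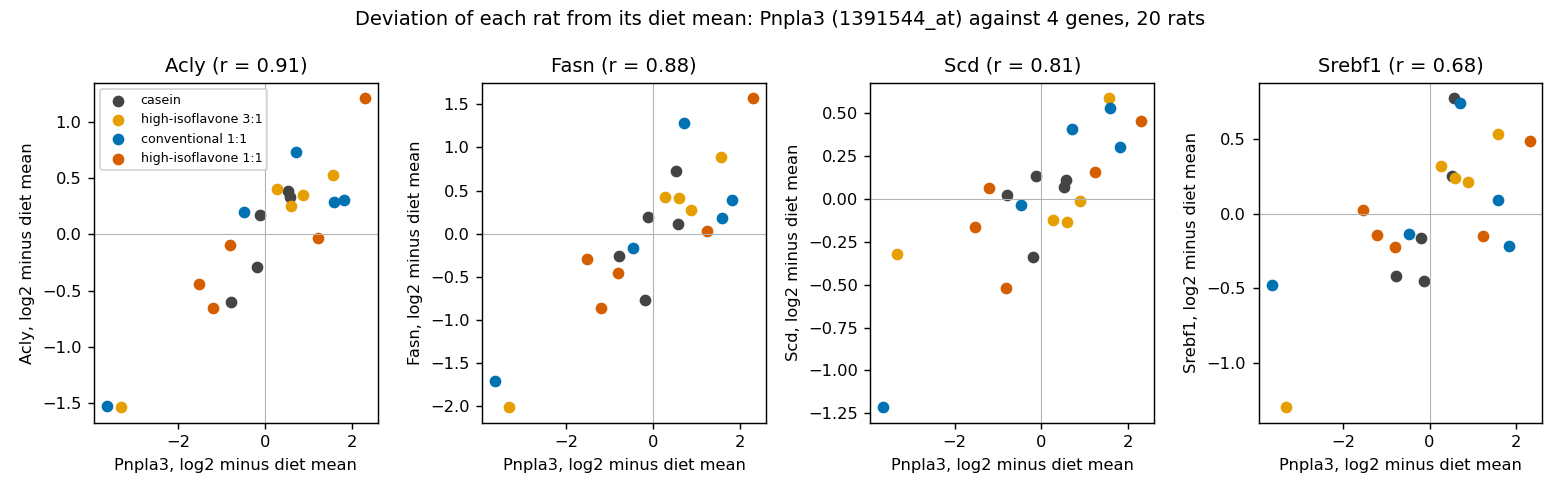
Deviation of each of the 20 rats from its diet mean on the log2 scale, Pnpla3 (1391544_at) on the horizontal axis against Acly, Fasn, Scd and Srebf1 on the vertical axes, coloured by diet. Points rise together with r between 0.68 (Srebf1) and 0.91 (Acly), and the 2 points at the far left are conventional replicate 3 and high-isoflavone 3:1 replicate 4.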

How the data were processed

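The authors deposited 1 table of log10 signals for 20 arrays, normalized with SuperNORM per the labels' protocols; neither version nor probe summary is given in the sources used here. The base was inferred: over spike-in controls the slope was 0.9965 (SD 0.0242) per log10 unit. The deposited log10 values were multiplied by 3.3219 to give log2. Of 31099 probe sets, 57 controls and 3342 without values (2 in both) were left out, leaving 27702 for 13462 genes. Array titles were matched to diets by wording. Differences were fitted with limma 3.58.1 in R 4.3.3 (lmFit, eBayes with trend, 1 mean per diet over 20 arrays, two-sided), Benjamini-Hochberg adjusted over 27702 probe sets and called under 0.05. SEs and intervals come from this fit. The fit was tested on simulated data. A gene was represented by its brightest probe set. Named were the fixed cofactors, regulators and targets, up to 5 called genes per list with the smallest adjusted p, and the genes most alike within diets. Genes outside that rule that are named were chosen after their values were seen: Ddhd2, Pnpla4, Tat, Epcam, Krt19, Cfd, Slc36a2, the diet differences of Acly, and dimmer second probe sets. The members, lists and tests were chosen with earlier results of these data known. Rats were separate animals, and 5 arrays per diet limit the precision. Alternatives were quantile normalization, median centring, a dimness filter, a floor, no trend, only the compared arrays, a replicate block, gene means, leaving out each array, and, chosen after seeing the data, leaving out the 2 arrays with a higher lowest signal.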

Additional observations from a re-analysis of the deposited data

Results flagged for a closer look

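In 15 of 124 groups of 5 rats examined, 1 rat lay so far from the others that the gap passed Dixon's 95% critical value of 0.71, which chance does in about 1 group in 20. The genes share arrays, so these are not 15 separate events. In high-isoflavone 3:1 replicate 4, Pnpla3 read 2.86 on 1391544_at (the others 6.44 to 7.74) and 1.81 on 1380013_at (5.00 to 6.16), Srebf1 read 5.22 (6.73 to 7.05), Fasn 4.34 (6.63 to 7.23), Plin2 7.06 (7.74 to 7.86) and Scap 3.72 (4.01 to 4.12). All 6 were the lowest of the group. In conventional 1:1 replicate 3, Angptl4 read 4.26 (5.50 to 5.71), Plin3 3.56 (4.04 to 4.14) and Fads2 5.05 (5.76 to 6.04). Its Pnpla3 value, also the lowest, did not pass, since the rest of the group was spread out. In casein replicate 1, Mlxipl read 2.90 (3.28 to 3.33), Scd 9.36 (9.72 to 9.83), Pgd 5.78 (6.28 to 6.45) and Scap 4.15 (4.34 to 4.37). In high-isoflavone 1:1 replicate 3, G0s2 read 7.24 (6.52 to 6.68) and Pgd 5.35 (4.72 to 4.85), both the highest.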

How the results depend on the processing

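Against casein, every Pnpla3 and Pnpla2 difference moved by less than the pooled SD within diets in all 28 alternatives. Leaving out 1 of 5 rats cannot move a difference by that much, so for those settings this outcome was fixed beforehand. Among the soybean diets, no Pnpla3 or Pnpla2 difference was called in the main fit or in any alternative. Leaving out 1 array, the Pnpla3 difference on 1391544_at ranged from -4.14 to -2.77 on conventional 1:1, -2.39 to -1.17 on high-isoflavone 3:1 and -5.61 to -4.65 on high-isoflavone 1:1. Counts of all probe sets called moved more. Without the 2 arrays with a higher lowest signal they were 114 (from 453) for conventional 1:1 against casein, 4 (from 11) for high-isoflavone 3:1 and 312 (from 613) for high-isoflavone 1:1, and 2 (from 1) for high-isoflavone 3:1 against conventional 1:1. For high-isoflavone 3:1 against casein the count was 7 with quantile normalization, 6 with median centring, 3 without a trend, 5 with only the compared arrays and 23 with the replicate block. For high-isoflavone 3:1 against conventional 1:1 those counts were 9, 13, 0, 0 and 0, and 2 with the floor. High-isoflavone 1:1 against conventional 1:1 gave 13 with centring and 12 with only the compared arrays (from 21), and high-isoflavone 1:1 against 3:1 gave 3 with the floor (from 0). Leaving out each array, the 6 counts ranged from 120 to 499, 1 to 26, 296 to 716, 11 to 31, 0 to 1 and 0 to 2, in the order conventional 1:1, 3:1 and 1:1 against casein, 1:1 against conventional, 1:1 against 3:1, and 3:1 against conventional. The causes of these moves were not tested. Rats with the same replicate number did not vary together throughout (r over 0.1 in 12 of 30 pairs, from -0.163 to 0.401), so the numbers were not taken to pair them. All 6 pairs of replicate 1 did, at 0.203 to 0.401. The replicate block gave 591 and 659 calls for the 1:1 diets against casein. Signals under the 25th percentile limit the size of the Pnpla3 differences.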
